A study of Homo sapiens with 12 samples.

Results

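The regions described are m6A peaks that stood in the peak list of control cells and that no peak of WTAP-silenced cells touched. A member was a row of the control list whose exonic blocks overlapped by 0 bp, with strand ignored, the exonic blocks of every peak in the knockdown list. The rule was met by 6149 of the 35341 control peaks, or 17.4% (95% Wilson interval 17.0% to 17.8%, counting error only). The cells were Kasumi-1, a human acute myeloid leukaemia line with the t(8;21) translocation and otherwise labelled wild type. One arm was stably transfected by lentivirus with a scrambled short hairpin RNA (control) and the other with a hairpin against WTAP (shWTAP), and both carried puromycin resistance and were kept in puromycin at 2 µg/ml, begun 48 h after transfection, for at least 24 h. Poly(A) RNA was fragmented and either kept as input or pulled down with an anti-m6A antibody (IP), in 3 biological replicates per arm, which gives 12 libraries in 4 groups. All libraries came from this 1 line, the labels give the hairpin by its target only, and the knockdown was partial (WTAP values stand with the input results).

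N6-methyladenosine (m6A) is the most common internal mark of mRNA. A complex of METTL3, the catalytic subunit, METTL14, its RNA-binding partner, and WTAP, which holds them at nuclear speckles, writes it in the nucleus on adenines within a DRACH context such as GGACT, mostly in long internal exons and near stop codons. FTO and ALKBH5 remove it, and YTH-domain and IGF2BP proteins read it and alter decay or translation of the mRNA. In acute myeloid leukaemia the writers and several readers are known as dependencies of the leukaemic cells.

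A peak here is a stretch of exons in which the authors listed more IP than input signal, with a fold enrichment, a p-value and a false discovery rate (FDR), together with the gene they gave it and its place in the 5′ UTR, an exon or the 3′ UTR. One list was deposited for each condition, so a peak has no replicate, no test between the lists was possible, and a peak missing from a list is not a measured loss of m6A. The members were chosen by the listed positions of the peaks in both lists, which come from the same calls as the fold, the FDR and the length, so those values are given as a description with no test.

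Sequence could be read only where a reference table covered a peak, which was so for the first 50 transcribed bases of 646 members. The 4 lines that follow show the GGACT-holding members with the lowest FDR among them, each as 30 bases, 5′ to 3′ on the transcribed strand, from RefSeq (GRCh38.p14). Capitals mark the GGACT motif, and the MTHFS line holds a further copy in lower case just before it.
RBM17: gcgccgccgagcgccctgaGGACTcagcga
MNT: ttcttgtcggcgGGACTcccgggggccgcg
MTHFS: gggactGGACTcggcttgggcgtgagatgg
TNFSF13: tccttcctagagGGACTggaacctaattct
The RBM17 stretch, from a splicing factor gene, is chr10:6089054-6089083 on the plus strand. That of MNT, a repressor that pairs with MAX, is chr17:2401013-2401042 on the minus strand. That of MTHFS, a folate enzyme, is chr15:79896985-79897014 on the minus strand. That of TNFSF13, a cytokine of the tumour necrosis factor family, is chr17:7558766-7558795 on the plus strand. The peaks around them were annotated to the 5′ UTR, with folds of 2.71, 3.38, 22.6 and 3.95 in that order. Their log10 FDR was -5.56, -5.18, -4.77 and -3.92.

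Any of the motif GGACT, its variant GGACA, its variant GGACC or the related AGACT stood in 109 of those 646 starts, or 16.9%. The other strand held one in 17.3% of the same starts, the covered starts of 3767 overlapped control peaks in 17.4%, and all 34943 starts of the reference table in 18.1%. GGACT alone was in 5.26% of member starts, 5.10% of overlapped starts and 4.89% of all starts. The letters of these windows were thus about as frequent in members as in any start. A match is a description of letters and not a measured site, and bases beyond these starts were not analysed here.

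6 members wholly contained a microRNA hairpin, MIR191, MIR24-2, MIR3615, MIR4313, MIR4785 and MIR1469. A hairpin is cut from a longer transcript, which METTL3 is known to be able to mark. The mature arms of the only 2 whose peak was assigned to the microRNA gene itself are shown in the 4 lines that follow, 5′ to 3′, with the seed (bases 2 to 8, which pair with target mRNAs) in capitals.
hsa-miR-191-5p: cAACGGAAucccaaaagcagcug
hsa-miR-191-3p: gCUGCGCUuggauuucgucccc
hsa-miR-24-3p: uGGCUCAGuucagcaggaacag
hsa-miR-24-2-5p: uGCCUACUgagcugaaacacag
No seed was shared among them. The MIR24-2 peak was 301 bp long with a fold of 9.02 and a log10 FDR of -4.17, and the nearest shWTAP block lay 1439 bp away. The MIR191 peak covered the 92 bp of the hairpin at a fold of 5.08 and a log10 FDR of -1.12, with a shWTAP block 228 bp away. In the control input the mean RNA level listed for MIR24-2 was 0, and MIR191 had no listed value. Which transcript these peaks lie on was not tested. The peaks of MIR191, MIR3615, MIR4313 and MIR1469 had an FDR above 0.05. Overlapped control peaks contained the hairpins of 50 microRNA genes, and members were 17.4% of all control peaks. Holding a hairpin was thus not particular to members.

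Members were shorter and less enriched than control peaks that a knockdown peak overlapped. The median exonic length was 181 bp in the 6149 members and 508 bp in the 29192 overlapped peaks. The median fold enrichment was 4.51 against 6.77, and the median log10 FDR was -1.5 against -11.2. 44.1% of members had an FDR above 0.05 (the p-values of the list, not the FDR, reach at most 0.05), against 8.02% of overlapped peaks. At an FDR of at most 1e-10 stood 154 members (2.50%) against 52.2% of overlapped peaks, and no member had a p-value listed at 0, as 2746 overlapped peaks did. Members with a single exonic block made up 74.1%, against 55.4%. The members held 10.2% of the summed exonic lengths of the control list, less than their share of its peaks.

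**Figure D1:**
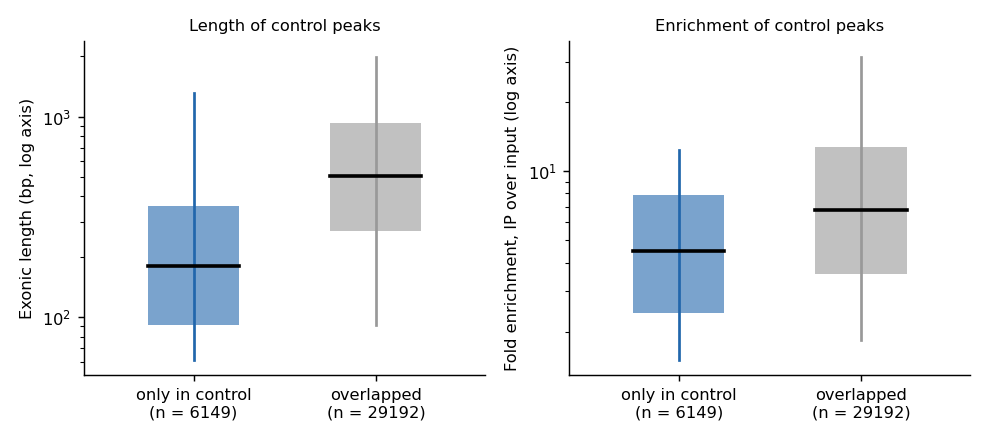
Exonic length in bp (left) and the authors' fold enrichment of IP over input (right), both on log axes, for members (blue) and overlapped control peaks (grey); black bars are medians, boxes the 25th to 75th percentiles and lines the 5th to 95th. Members have a median length of 181 bp against 508 bp and a median fold of 4.51 against 6.77.

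The knockdown list held a set of the same size that the control list lacked. Of its 35851 peaks, 6167 (17.2%) touched no control peak, with a median length of 151 bp, a median fold of 4.34 and an FDR above 0.05 in 37.6%. The share of one-list peaks was therefore near equal on both sides. Over all peaks, exonic lengths summed to 23144290 bases in the control list and 19461822 in the shWTAP list, with medians of 421 and 361 bp. Bases shared by overlapping peaks of a list count more than once in these sums.

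Read along the FDR of the control peak, the share that was listed only in control fell at each step. It was 53.7% of the 5055 peaks with an FDR above 0.05, 41.3% from 0.05 to 0.01, 23.0% from 0.01 to 1e-5 and 7.85% from 1e-5 to 1e-10. Below that it was 3.01%, then 1.24%, and at 1e-50 or less 9 of 8556 peaks (0.105%). Length gave a like order, from 50.6% of peaks of at most 100 bp to 6.43% of those over 1000 bp. Peaks of genes at 0 to 1 FPKM (fragments scaled to transcript length and library total, the unit of RNA level in the input) in control were members in 19.8% of cases, and those at 10 to 50 FPKM in 14.2%.

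**Figure D2:**
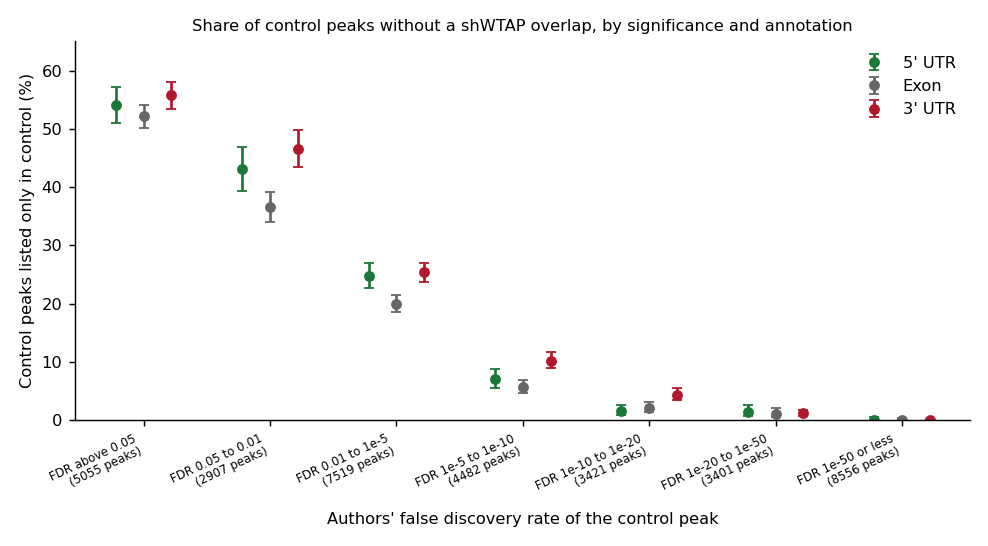
Percent of control peaks with no shWTAP overlap (vertical axis) in bins of the authors' FDR (horizontal axis, number of peaks in brackets), by annotation, with 95% Wilson intervals. The share falls from 53.7% over all annotations in the weakest bin to 0.105% in the strongest.

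By annotation, 38.0% of members lay in 3′ UTRs, 40.9% in exons and 21.1% in 5′ UTRs, against 48.6%, 32.9% and 18.4% of overlapped peaks. Taken over the whole list, 3′ UTR peaks were members least often, at 14.1% against 20.8% of exon and 19.4% of 5′ UTR peaks. Within each of the 7 bins of FDR, however, the share was higher for 3′ UTR than for exon peaks, with intervals that overlap in 3 of them. The intervals are for counting error only and are no test, since some members overlap each other. Length was not held fixed within the bins. From 0.05 to 0.01, 46.5% of 3′ UTR peaks were members (95% interval 43.4% to 49.7%) against 36.5% of exon peaks (34.0% to 39.2%). From 1e-5 to 1e-10 the values were 10.2% of 3′ UTR peaks (8.94% to 11.7%) and 5.72% of exon peaks (4.71% to 6.94%). The 3′ UTR held 5934 of the 8556 peaks of FDR 1e-50 or less, where next to no peak was a member. Across the autosomes and X the share was 15.3% to 19.1%, and none of the 15 mitochondrial peaks was a member.

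Many members repeated the same pair of fold and p-value in the authors' list. The pair of fold 6.77 and listed p-value 0.045 occurred in 614 members. The pair of 7.90 and 0.024 occurred in 386, that of 9.02 and 0.012 in 256 and that of 10.2 and 0.0065 in 183. Pairs shared by at least 50 control peaks covered 38.0% of members and 11.1% of overlapped peaks. What these peaks share beyond the listed values was not tested.

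The distance to the knockdown peaks varied widely. The median gap to the nearest shWTAP exonic block was 1287 bp, with 783 members (12.7%) within 100 bp, 2857 (46.5%) within 1000 bp and 1498 beyond 10000 bp. For 60.9% the nearest shWTAP peak was assigned to the same gene, and for 74.6% the assigned gene had a shWTAP peak somewhere. Members just inside the rule were peaks of ZNF142, DENND10P1 and SPATA5 with 0, 1 and 3 bp between them and a shWTAP block. Peaks just outside were those of CCDC28B, UTP11 and SLC16A1-AS1, each with 1 bp of overlap. Some members overlapped each other, which was so for 534, so they are not independent regions.

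**Figure D3:**
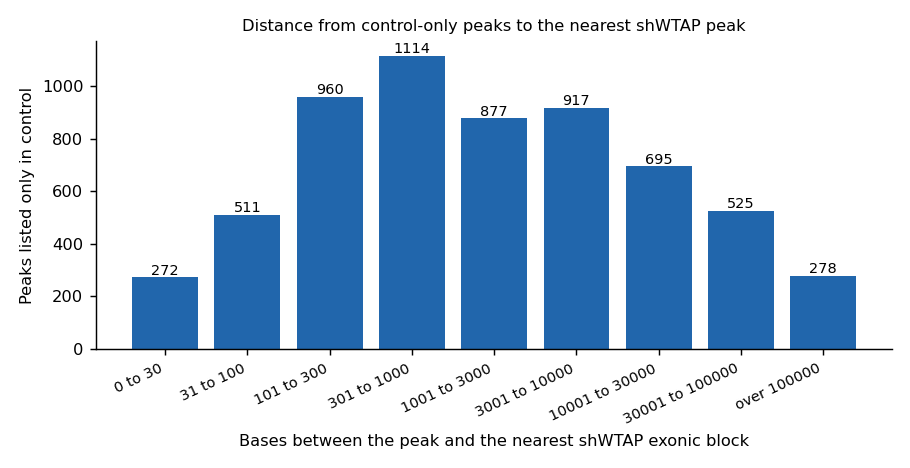
Number of members (vertical axis) by the bases between the member and the nearest shWTAP exonic block (horizontal axis, classes of unequal width). The most filled class is 301 to 1000 bp with 1114 members, and 278 lie over 100000 bp away.

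The members with the highest fold among genes of at least 1 FPKM began with NOMO3, a protein of the endoplasmic reticulum membrane. Its 5′ UTR peak at chr16:16232528-16232768 had a fold of 104 and a log10 FDR of -32.5. All 5 control peaks of NOMO3 were members, and the shWTAP list held none. The near-identical copy NOMO2 had a 5′ UTR peak in both lists, with folds of 5.57 and 4.82, and how the authors' counting shared reads among the copies is not given in the sources used here, so the NOMO3 values are uncertain. NOMO3 input RNA was 12.8, 11.9 and 13.7 FPKM in control and 13.3, 17.6 and 16.3 FPKM in shWTAP, which overlap (limma adjusted p = 0.187, and 0.0144 without shWTAP 1).

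TFG, which acts in transport out of the endoplasmic reticulum, had a 5′ UTR member at chr3:100710012-100710192 with a fold of 44.0 and a log10 FDR of -10.6, 476 bp from a shWTAP peak of TFG. MED18, a subunit of the Mediator complex, had a 3′ UTR member at chr1:28335461-28335906 with a fold of 39.8 and a log10 FDR of -39.0. Its other control peak, of 1454 bp with a fold of 16.2, covered all of the 1038 bp of a shWTAP peak with a fold of 24.0. The member lay 444 bp beyond that shWTAP peak. PWWP3A, a chromatin protein, followed with an exon peak of fold 36.1.

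The next was a 540 bp peak assigned to SMG8, a subunit of the kinase complex of nonsense-mediated decay, at chr17:59203233-59203772 with a fold of 29.6 and a log10 FDR of -115. It lay at -5628 bp from the gene's start, that is, before it, so the gene it belongs to is uncertain, and the other 4 control peaks assigned to SMG8 overlapped shWTAP peaks. PWP2 of ribosome assembly, AFMID of tryptophan breakdown, GPN2, a GTPase, CLPB, a mitochondrial chaperone, and the pseudogene LSP1P5 had folds of 29.3, 28.2, 27.1, 25.9 and 24.8. None of the named genes from NOMO3 to LSP1P5 passed the limma threshold in input RNA.

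The members with the lowest FDR had folds between 1.35 and 29.6, the highest being the SMG8 peak already given. PLIN2, which coats lipid droplets, had a 329 bp member in its 3′ UTR at chr9:19116134-19116462 with a log10 FDR of -152 and a fold of 2.13. A shWTAP peak of PLIN2 began 328 bp away, at a fold of 4.45. The long non-coding RNA FGD5-AS1 had a member of 478 bp with a fold of 9.36 and a log10 FDR of -142, 59 bp from a shWTAP peak, and its 3 other control peaks were overlapped.

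ACOT2, a mitochondrial acyl-CoA thioesterase, had a 450 bp member with a fold of 7.05 and a log10 FDR of -141. RPL13 of the large ribosomal subunit, BTF3, which binds nascent proteins, and SLC25A6, a mitochondrial ADP/ATP carrier, had folds of only 1.51, 1.42 and 1.37 at log10 FDR of -78.2, -77.6 and -43.2. OAZ1, the antizyme that limits polyamine synthesis, and LINC01145 had folds of 2.86 and 6.37. The OAZ1 member held 1770 bp in 9 exonic blocks spread over chr19:2252252-2269579, and its nearest shWTAP peak was assigned to MIR4321. OAZ1 also overlaps another listed gene, so the gene this peak belongs to is uncertain. MPO, the peroxidase of myeloid granules, had a 150 bp 5′ UTR member with a fold of 1.35 and a log10 FDR of -44.0, while its 3′ UTR peak was in both lists with folds of 2.72 and 3.29. MPO input RNA was 1403, 1416 and 1296 FPKM in control and 1481, 1550 and 1546 FPKM in shWTAP. The groups do not overlap, but the difference did not pass (limma adjusted p = 0.198).

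Members were spread over 4928 of the 16595 genes with a control peak. Of these, 3977 had 1 member, 748 had 2 and 203 had 3 or more. 3269 also had an overlapped control peak, and 1659 had only members, of which 1329 had no shWTAP peak assigned. The most members were assigned to CCDC26, a long non-coding RNA, with 7 of 22 control peaks, though only 2 of the 7 lay inside the gene. ARL6IP4, ZNF26, CLPB and AATK had 6 each, but most of the ARL6IP4 members overlap another of them. Besides NOMO3, the genes with only members and the most peaks were LY6G5B and 2 genes listed under clone names, each with 4 of 4 peaks. Those of LY6G5B, and those of the clone-named AC009118, overlap each other in pairs. The assigned gene spanned the peak in 90.2% of members whose gene had an FPKM value.

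Few of the control peaks of the m6A machinery were members, but these peaks were few. They were not matched to the list on FDR or length, and a difference from the share over the list was not tested. The writer complex had 1 member among 20 control peaks, 5.00% against 17.4% over the list, and it was a 61 bp exon peak of ZC3H13, the zinc-finger subunit that keeps the complex in the nucleus, with a fold of 3.32. WTAP, METTL3 and METTL14 had 1 control peak each, all overlapped. For WTAP the 5′ UTR peak had folds of 2.33 and 2.29 in control and shWTAP, and for METTL3 4.07 and 4.39. METTL14 had a 3′ UTR peak with folds of 10.8 and 7.85. Erasers and readers had 2 members among 30 peaks (6.67%). They were in IGF2BP2, which stabilises m6A-marked mRNA, with a fold of 1.19, and in FMR1, a translation repressor, with a fold of 9.02.

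Haematopoietic transcription factors had 10 members among 56 control peaks (17.9%), in 8 genes. GATA2, a factor of stem and progenitor cells, had 2 neighbouring 3′ UTR members with folds of 1.82 and 2.06, next to a large 3′ UTR peak in both lists at folds of 14.4 and 10.1. TAL1 also had 2, with folds of 1.62 and 7.90 and log10 FDR of -2.28 and -0.69. FLI1, an ETS factor, had a 151 bp 3′ UTR member with a fold of 1.76 and a log10 FDR of -9.37, and its other 4 control peaks were overlapped. ETV6, another ETS factor, had a 5′ UTR member with a fold of 2.38. MYB, which keeps myeloid progenitors cycling, had a 3′ UTR member with a fold of 1.12, the lowest of the list. RUNX3, IKZF1 and HOXA9 had 1 each, with log10 FDR of -0.69, -1.17 and -1.22, and HOXA9 RNA was at a mean of 0.11 FPKM in control. Of the 10 members of this list, 4 had an FDR above 0.05. RUNX1 and MYC had none among their 8 and 4 control peaks.

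mRNAs known to carry m6A in leukaemia cells had 6 members among 39 peaks (15.4%). TACC3, a spindle protein, had a 91 bp 3′ UTR member with a fold of 2.00 and a log10 FDR of -9.61, and RARA, the retinoic acid receptor, a 5′ UTR member with a log10 FDR of -0.778. KDM4B, a histone demethylase, had 3 of 11, with folds of 2.88, 1.41 and 1.32 and log10 FDR of -1.88, -1.13 and -1.47. The 8 others were overlapped, among them peaks with folds of 21.0 and 33.8. KDM4B input RNA was 5.14, 5.62 and 5.34 FPKM in control and 4.53, 5.71 and 6.21 FPKM in shWTAP, which overlap.

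Histone lysine methyltransferases and demethylases had 20 members among 163 peaks (12.3%), in 14 genes. DOT1L, the H3K79 methyltransferase, had 3 members upstream of its other control peaks. The one with the lowest FDR was an exon peak of 601 bp with a fold of 1.90 and a log10 FDR of -11.7, and the one with the highest fold, 6.77, was annotated to the 3′ UTR with a log10 FDR of -0.438. Its 3 remaining control peaks, with folds of 2.76, 17.7 and 12.7, met shWTAP peaks with folds of 2.73, 17.1 and 8.59. NSD3 had 3 members, and KDM2B, EHMT1, EHMT2, SETDB1, SUV39H2, KMT2A and KMT2C had 1 each. KDM4A had 1, a 271 bp exon peak with a fold of 10.2 and a log10 FDR of -1.30.

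CNOT11, a subunit of the CCR4-NOT complex that shortens poly(A) tails, had a single control peak, and it was a member. This 238 bp 5′ UTR peak at chr2:101252886-101253123 had a fold of 3.72 and a log10 FDR of -6.44, and the nearest shWTAP block was 18095 bp away. CNOT2 of the same complex had 2 members with folds of 1.51 and 1.17, which makes 3 among 27 peaks for the complex (11.1%). The BCL2 family had 6 among 32 (18.8%). They were 3 of 4 peaks of BAD, a promoter of apoptosis, with folds of 5.64, 2.46 and 1.66, 2 of 4 of BID and 1 of BAX. The shWTAP peaks nearest to the BAD members were assigned to its neighbour GPR137. Cytokine receptors and their inhibitors had 4 among 29 (13.8%), in IL6ST, EPOR and SOCS2, which had 2.

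**Figure D4:**
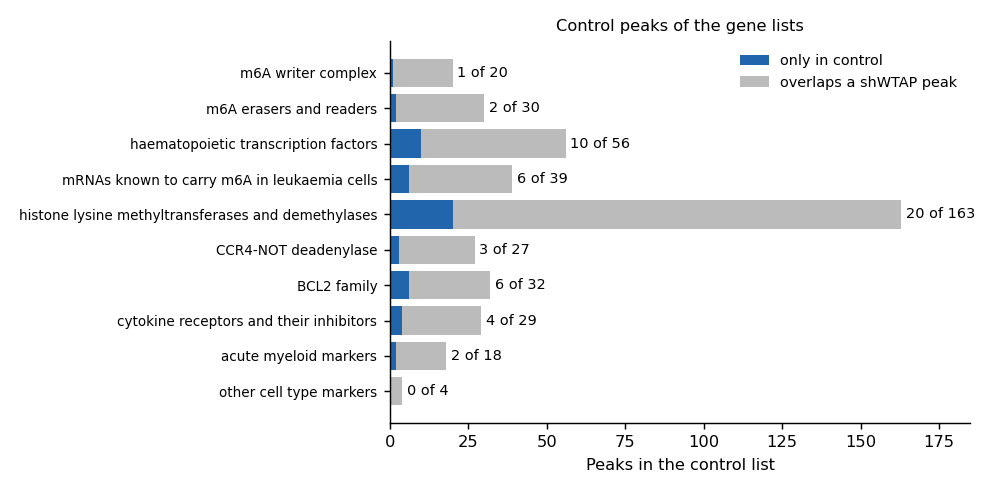
Peaks in the control list (horizontal axis) for the genes of each list (vertical axis), split into members (blue) and peaks that overlap a shWTAP peak (grey), with members of all control peaks beside each bar. The histone list holds 20 of 163 and the writer complex 1 of 20.

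The input libraries answered another question, whether genes that held a member differed in RNA level between the arms. The 6 libraries summed to 177800 to 187200 FPKM, their depth is unknown, and the share of FPKM from mitochondrial mRNAs was 0.634% and 0.631% in libraries control 3 and shWTAP 1 and 0.300% to 0.333% in the other 4. The part of that difference in the results was not tested beyond a fit with those 2 libraries as a block. WTAP itself was at 11.6, 11.2 and 11.7 FPKM in control and 6.97, 6.49 and 5.69 FPKM in shWTAP, with no overlap (log2 change -0.76, SE 0.08, limma adjusted p = 0.00663, and 0.0518 without control 1; exact 2-sided permutation p = 0.1, the smallest that 3 against 3 allow). Myeloid markers were present, with MPO at 1300 to 1550, KIT at 701 to 856, CD34 at 49.8 to 58.7 and RUNX1T1, the partner of RUNX1 in the translocation, at 13.5 to 18.2 FPKM, while CD38 stayed at or under 0.0973 FPKM. The 12 myeloid markers summed to 2392 to 2471 FPKM in control and 2600 to 2649 FPKM in shWTAP, mostly from MPO and KIT. CTSG, a granule protease, was lower in shWTAP (150 to 165 FPKM against 168 to 192 FPKM), as was RUNX1T1 (13.5 to 16.4 FPKM against 17.0 to 18.2 FPKM), and none of the 10 tested markers passed, with a median log2 change of 0.01. Of the 12 markers of other cells, 9 were listed, with sums of 93.9 to 96.2 FPKM in control and 91.4 to 115.5 FPKM in shWTAP, nearly all from CD3D (48.7 to 60.4 FPKM) and EPCAM (38.6 to 50.2 FPKM). CD3E, the erythroid HBA1, KRT18, ALB, COL1A1 and PECAM1 stayed at or under 0.962 FPKM, and the part of these markers in the results was not tested. Fewer cells of a type and less RNA per cell cannot be told apart in these bulk samples. The input is also the denominator of a peak, so RNA level is not fully independent of the rule.

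Of the 4928 genes with a member, 2608 passed the filter on low values, and 80 of them (3.07%) passed the test, 29 higher and 51 lower in shWTAP. Over all 11383 tested genes the share was 3.89%, with 1.48% higher and 2.42% lower. After quantile normalization the split was 71 higher and 64 lower, and after median centring 71 higher and 59 lower. Leaving out 1 library moved the count between 4 (without control 1 or shWTAP 3) and 614 (without shWTAP 1). The median log2 change of the genes with a member was -0.01, and that of all tested genes was -0.03. The 2 groups of libraries did not overlap in 345 higher and 412 lower genes with a member, 29.0%, against 28.2% of all tested genes. Genes with only members gave 23 calls of 527 (4.36%), and genes whose control peaks were all overlapped 257 of 6180 (4.16%). These shares lie near the background of 3.89%. All p-values rest on the spread of 3 libraries per arm.

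CNOT11 fell from 15.4, 15.3 and 17.5 FPKM in control to 7.86, 8.38 and 8.08 FPKM in shWTAP. Each knockdown library lay below each control library, and the mean went from 16.1 ± 1.21 to 8.11 ± 0.26 FPKM (SD, n = 3 each; log2 change -0.90, SE 0.07, limma adjusted p = 0.00322). GYS1, the muscle form of glycogen synthase, fell from 22.9, 23.5 and 23.5 FPKM to 10.4, 11.5 and 11.3 FPKM (log2 change -1.01, SE 0.06, limma adjusted p = 0.00136). Its member was a 91 bp 3′ UTR peak at chr19:48969175-48969265 with a fold of 1.42 and a log10 FDR of -4.43. COPS7A, a subunit of the COP9 signalosome, fell from 5.26, 5.78 and 5.92 FPKM to 2.98, 3.24 and 2.89 FPKM (log2 change -0.72, SE 0.07, limma adjusted p = 0.00663). Its only control peak, a 180 bp 5′ UTR peak with a fold of 2.26, was a member, 59 bp from a shWTAP peak of the same gene. These 3 genes passed the threshold in each of the 13 alternative fits.

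The other named falls were less stable. CHORDC1, TMEM267, NUDT21, ZEB2, HDHD2 and MILR1 lost the call in 7 of 13 alternatives, which were no filter, the replicate block and leaving out any library but shWTAP 1, and NEDD1 lost it in 6 of these, with a highest adjusted p between 0.0666 (NEDD1) and 0.167 (ZEB2) over the alternatives. NEDD1, which brings the gamma-tubulin ring to centrosomes, was at 8.25, 8.71 and 9.68 FPKM in control and 5.32, 4.12 and 4.25 FPKM in shWTAP (log2 change -0.83, limma adjusted p = 0.0113), and its only control peak was a 5′ UTR member with a fold of 3.01. NUDT21, the cleavage factor subunit that steers poly(A) site choice, had 2 control peaks, both members of 61 bp. Their folds were 7.90 and 2.74 at log10 FDR of -0.69 and -1.23, so both had an FDR above 0.05. NUDT21 RNA was at 29.7, 28.9 and 33.2 FPKM in control and 22.7, 18.1 and 17.4 FPKM in shWTAP (log2 change -0.64, limma adjusted p = 0.0272). ZEB2, a zinc-finger repressor, had 3 members among 5 control peaks, the strongest with a fold of 18.0, and fell by 0.60 on the log2 scale from a mean of 8.45 to 5.30 FPKM. CHORDC1, TMEM267, HDHD2 and MILR1 fell by 0.56 to 0.74. The members assigned to TMEM267 and HDHD2 lay outside those genes.

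FLI1 and KDM4A each were the only gene with a member in their list that passed. FLI1 was at 24.0, 24.1 and 22.7 FPKM in control and 18.4, 17.4 and 17.8 FPKM in shWTAP (log2 change -0.38, limma adjusted p = 0.0221). KDM4A was at 15.8, 15.6 and 16.6 FPKM in control and 12.2, 11.2 and 10.6 FPKM in shWTAP (log2 change -0.46, limma adjusted p = 0.0208). Both calls were lost without any 1 library other than shWTAP 1, with a highest adjusted p over the alternatives of 0.134 for FLI1 and 0.109 for KDM4A. Over all tested genes 1.48% were called higher and 2.42% lower, with a median log2 change of -0.03. In the transcription factor list 1 of 20 tested genes was higher and 3 lower, with a median log2 change of 0.00, and in the histone list 0 of 36 were higher and 1 lower, with a median of -0.04. In CCR4-NOT the call was CNOT11 of 12 tested (median -0.05), and no gene with a member passed in any other list. RILPL2, with 5 members among 8 control peaks, lay at the threshold (log2 change -0.37, limma adjusted p = 0.0499) and was past it in 5 of 13 alternatives.

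Of the named rises, LXN, PLAU, PARP16, STX12, RCSD1 and GM2A lost the call in those same 7 alternatives, APOBEC3G in 6, CBX6 and PAM in 5, and BRD3OS in 2 (without control 1 and without shWTAP 3), with a highest adjusted p between 0.0554 (BRD3OS) and 0.181 (GM2A) over the alternatives. BRD3OS, a transcript on the opposite strand beside BRD3, went from 2.64, 2.91 and 2.92 FPKM to 4.83, 5.47 and 5.40 FPKM (log2 change 0.70, SE 0.08, limma adjusted p = 0.00687), with 1 member among 6 control peaks. CBX6, a Polycomb protein, was at 6.46, 6.25 and 6.37 FPKM in control and 9.74, 11.2 and 9.85 FPKM in shWTAP (log2 change 0.61, limma adjusted p = 0.0104). APOBEC3G, an antiviral cytidine deaminase, was at 4.49, 5.34 and 4.68 FPKM in control and 7.33, 7.58 and 8.12 FPKM in shWTAP (log2 change 0.57, limma adjusted p = 0.0154), and its member was an exon peak with a fold of 19.2.

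LXN, an inhibitor of carboxypeptidases known in mouse to restrain blood stem cell numbers, had a single control peak, a 5′ UTR member with a fold of 1.81, and no shWTAP peak. LXN was at 9.96, 8.58 and 9.36 FPKM in control and 14.6, 13.3 and 13.5 FPKM in shWTAP (log2 change 0.52, limma adjusted p = 0.0178). PAM, which amidates peptides, PLAU, the urokinase, PARP16, STX12, RCSD1 and GM2A, a cofactor of ganglioside breakdown, rose by 0.38 to 0.54 on the log2 scale. The member assigned to STX12 lay outside that gene. Genes whose assigned control peaks were all members thus lay among both the falls (CNOT11, COPS7A, NEDD1, CHORDC1, NUDT21 and MILR1) and the rises (LXN, PARP16 and STX12). Several of these genes had only weak control peaks. The peaks of NUDT21 (log10 FDR -0.69 and -1.23), CHORDC1 (-0.69), PARP16 (-1.29) and STX12 (-1.01) had an FDR above 0.05. That of NEDD1 lay near this level (-1.3). Those of CNOT11, COPS7A, MILR1 and LXN had log10 FDR of -6.44, -2.17, -10.2 and -2.57.

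Some of these levels are uncertain because genes of the table overlap. PARP16, STX12, ZEB2 and HDHD2 overlap another listed gene on the same strand. BRD3OS, PLAU, LXN, PARP16, RCSD1, GM2A, NUDT21, ZEB2, HDHD2, FLI1, KDM4A and WTAP itself overlap one on the opposite strand. Whether the authors counted by strand is not given in the sources used here. CNOT11, GYS1 and COPS7A overlap none.

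**Figure D5:**
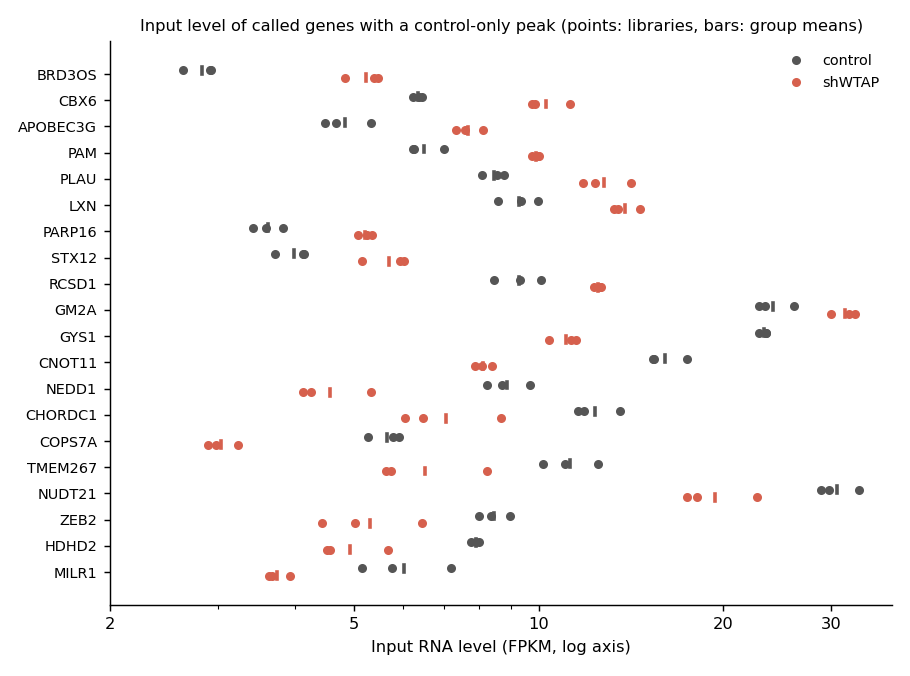
Input RNA level in FPKM (log axis) of the 20 named genes with a member (vertical axis) in 3 control (grey) and 3 shWTAP (red) libraries; points are libraries and short bars group means. The genes were chosen among called genes whose groups do not overlap, which by itself is so for 28.2% of all tested genes. CNOT11 falls from a mean of 16.1 to 8.11 FPKM and BRD3OS rises from 2.82 to 5.23 FPKM.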

How the data were processed

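Peaks and gene levels were used as the authors deposited them. The control and shWTAP lists give per peak a fold enrichment (ratio of IP over input), a p-value, and log10 p and FDR scores, all computed by the authors. FPKM values per gene were deposited for the 6 input libraries. Tools in the submitters' processing notes are fastp, HISAT2, HOMER and ChIPseeker, without versions. For the peak caller, pooling of replicates and build, the answer is not given in the sources used here. Coordinates were taken as GRCh38 because 13439 of 20181 genes matched by symbol (66.6%) shared a first or last base with RefSeq GRCh38.p14.

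Exonic blocks were intersected with bedtools 2.31.1. Input RNA was tested with limma 3.58.1 (R 4.3.3) on log2(FPKM + 1), for genes at 1 FPKM or more in at least 3 libraries, with Benjamini-Hochberg adjustment over 11383 genes and calls under 0.05. Log2 changes are on that scale, which understates changes of low genes. On simulated data with 200 genes changed by 1 log2 unit among 11383, the fit recovered 178 with 6 false calls. The simulated noise was independent between genes and libraries. It therefore cannot show how the fit behaves with differences that run through a whole library, as in control 3 and shWTAP 1. Replicate numbers do not pair the samples (same-number correlations -0.106, 0.167 and -0.144). The members and gene lists were chosen with earlier results of these data known. Named genes were those of the lists, the 10 highest folds, the 10 lowest FDR, the 10 genes with most members, the 10 with most peaks that were all members, the 3 nearest on each side of the rule, and the 10 largest rises and falls among called, non-overlapping genes with a mean of at least 5 FPKM in the arm where they were higher. No genome was used, so the printed stretches come from RefSeq tables of starts and microRNAs and were chosen after values were seen. Alternatives changed the overlap rule, FDR, pseudocount, filter, scaling, block and libraries.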

Additional observations from a re-analysis of the deposited data

How the results depend on the processing

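The 6149 members became 6885 with the same strand required, 5750 with whole spans and 5366 with shWTAP blocks widened by 100 bp. They became 9872 where 50% of the exonic bases had to be shared, 2235 with control peaks at FDR 0.01 or less, 3304 with both lists so filtered and, chosen after seeing the data, 3435 with control peaks at FDR 0.05 or less. The 443 calls over all genes became 395 with pseudocount 0.1, 449 at 5 FPKM, 82 without a filter, 672 after quantile normalization and 662 after median centring. They became 77 with the replicate block, though the numbers do not pair the samples, and 1938 with control 3 and shWTAP 1 as a block. The 80 calls among genes with a member became 73, 81, 12, 135, 130, 6 and 420 in the same order, with 6 under the replicate block, 23 for genes with only members, 47 for members at FDR 0.01 or less and, chosen after seeing the data, 71 for members that overlap their assigned gene. Leaving out 1 library gave 35 to 2737 calls over all genes and 4 to 614 among genes with a member, the highest without shWTAP 1 and the lowest without shWTAP 3 or, among genes with a member, also control 1. Without control 1, control 2, control 3, shWTAP 2 and shWTAP 3, respectively, 38, 65, 60, 72 and 35 calls over all genes were left. Among the 20 named genes, CNOT11, GYS1 and COPS7A passed in all 13 alternatives and none of the 20 changed direction. The log2 change of KDM4B, 0.019 and not past the threshold, turned to -0.007, -0.011 and -0.063 without control 1, shWTAP 2 and shWTAP 3, and was 0.129 without shWTAP 1. The cause of these moves was not tested. With unknown depth and 1 list per condition, the weakest members cannot be told apart from the threshold of the peak caller.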
